A study of Mus musculus with 6 samples.

Results

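The 4 genes described here encode the constant parts of the mouse immunoglobulin light chains: Igkc, the kappa constant gene, and Iglc1, Iglc2 and Iglc3, the lambda constant genes. They were taken by symbol from the 31053 genes of the deposited tables and read in 2 ways, per B or plasma cell as a kappa or lambda share, and as RNA found in cells of other classes. Cells were clustered without any immunoglobulin gene, and of the 4789 cells kept from 8582 barcodes, 971 were B-like and 42 plasma-like, 1013 in all. Of the Igkc UMIs (unique molecular identifiers, each counting 1 captured RNA molecule) in kept cells, 86.5% lay in the 42 plasma-like cells, 12.7% in the B-like cells and 0.800% in all other classes. The 3 lambda genes had the same order, with 76.5%, 55.8% and 53.2% of the UMIs of Iglc1, Iglc2 and Iglc3 in plasma-like cells and 23.02%, 43.4% and 46.0% in B-like cells. These genes were chosen with values from these data in view, among them a low Igkc level in EYFP positive acinar-like cells, so the levels that led to the choice are given as a description.

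The study sorted pancreatic cells by the yellow fluorescent protein EYFP and profiled each fraction by droplet-based single-cell RNA sequencing, using mice of the strain R26[CA]30EYFP with C57Bl/6J as background. In these mice the reporter sits at the Rosa26 locus out of frame behind a CA repeat, and slippage of the repeat during replication switches it on at random, in any cell type. Each of 3 runs gave 1 EYFP positive and 1 EYFP negative library: runs 1 and 2 came from untreated mice in homeostasis, and run 3 from mice 9 days after pancreatitis caused by cerulein in PBS, injected into the peritoneum at 50 ug/kg 7 times a day on 2 days. All 6 libraries carry the same reporter allele and background, the labels give no age or sex, and whether libraries came from separate or pooled animals is not stated, so a p-value speaks only of the spread between the 6 libraries, which may be technical. Run 3 and pancreatitis are the same libraries and cannot be told apart. Xist, which is transcribed from the inactive X chromosome of female cells, was lower in the B-like and plasma-like cells of run 3 (log2 fold change -5.69, edgeR adjusted p = 0.00149), so the sex of the animals cannot be told apart from the condition either.

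Each B cell normally makes antibody with 1 kind of light chain. During development the kappa locus usually rearranges first, and the lambda locus follows where no working kappa chain has formed, so that most mouse B cells carry kappa. A variable (V) and a joining segment are spliced to a constant gene, which the whole locus shares in the case of kappa, while in mouse lambda each constant gene has its own joining segment. Resting B cells show the finished chain on the surface as part of the B cell receptor, and plasma cells secrete it in bulk. Light chain RNA is therefore among the most abundant RNA of plasma cells, and when cells break during tissue dissociation such RNA can enter droplets with other cells.

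The following sequences show why counts of Igkc and Iglc1 can be told from those of the other genes, and why counts of Iglc2 and Iglc3 are harder to separate. Each is the end of the coding part, 150 bases read 5′ to 3′ from the GENCODE vM21 transcript on the GRCm38 build, matched by the gene identifier in the deposited tables. Capitals in Iglc1 mark the 51 bases that differ from both Iglc2 and Iglc3, capitals in Iglc2 and Iglc3 mark the 4 bases at which these differ from each other, and Igkc, which was not aligned with them, has none.
Igkc: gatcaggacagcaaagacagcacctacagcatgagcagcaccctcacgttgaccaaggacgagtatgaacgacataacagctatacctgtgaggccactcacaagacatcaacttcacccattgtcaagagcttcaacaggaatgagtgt
Iglc1: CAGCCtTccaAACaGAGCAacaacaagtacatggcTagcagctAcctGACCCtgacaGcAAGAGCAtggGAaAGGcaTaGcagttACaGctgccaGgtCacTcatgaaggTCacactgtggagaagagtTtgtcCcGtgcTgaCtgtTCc
Iglc2: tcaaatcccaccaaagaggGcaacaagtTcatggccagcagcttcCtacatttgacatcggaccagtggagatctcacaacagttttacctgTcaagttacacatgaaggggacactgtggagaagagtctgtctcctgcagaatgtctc
Iglc3: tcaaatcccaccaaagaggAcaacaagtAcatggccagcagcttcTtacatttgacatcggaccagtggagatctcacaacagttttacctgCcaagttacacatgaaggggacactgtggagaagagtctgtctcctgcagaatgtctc

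All 4 are annotated as immunoglobulin constant genes, and the 1 transcript read for each has 1 exon. The coordinates are those of the genes, and for Iglc2 they span more than its transcript. Igkc (ENSMUSG00000076609) lies on the plus strand at chr6:70726435-70726966. The lambda genes lie on the minus strand of chromosome 16, Iglc1 (ENSMUSG00000105906) at chr16:19061618-19062071, Iglc3 (ENSMUSG00000105547) at chr16:19065230-19065681 and Iglc2 (ENSMUSG00000076937) at chr16:19198396-19200351. Over 314 coding bases Iglc2 and Iglc3 were 96.5% identical, and over the 150 bases shown Iglc1 was 64% identical to Iglc2 and 65.3% to Iglc3. Of the 409 windows of 50 bases in the Iglc2 transcript, 43 (10.5%) occurred unchanged in the Iglc3 transcript and 0 in those of Igkc and Iglc1. The sources used here do not say how reads that fit 2 genes were counted, so the split of UMIs between Iglc2 and Iglc3 is uncertain. The sum of the lambda genes and its ratio to Igkc do not rest on how UMIs were split between these genes. Both would be too low, however, if reads that fit 2 genes were left out. A UMI counts a molecule and is not scaled by transcript length (532, 454, 458 and 452 bases for Igkc, Iglc1, Iglc2 and Iglc3), so shares below are shares of molecules.

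The libraries held 1044718 to 23658431 UMIs over 220 to 3593 barcodes, and 176 to 1702 cells per library were kept, with a median of 2704.5 to 7385.5 UMIs. EYFP negative runs 1, 2 and 3 gave 99, 338 and 430 B-like and 10, 27 and 0 plasma-like cells, and EYFP positive runs 1, 2 and 3 gave 29, 37 and 38 B-like and 3, 1 and 1 plasma-like cells. The B-like clusters were led by Cd79a, Cd79b, Ms4a1, Ly6d, Fcmr and Bank1. All 12 plasma cell markers were each detected in at least 10% of the plasma-like cells. Their 10 leading genes were Jchain, Mzb1, immunoglobulin genes and Mki67, a gene of dividing cells. In the first clustering, 14 cells led by Mki67, Cenpf and Top2a were named plasma-like with 0 plasma cell markers among their 10 leading genes. How many of these 14 are among the 42 plasma-like cells was not counted. The EYFP negative and positive library of a run shared 23, 71 and 47 barcodes in runs 1, 2 and 3, against 0 to 2 for libraries of different runs. In these pairs the shallower copy held a median of 3.08%, 8.62% and 6.50% of the UMIs of the deeper one, and it was left out. Plasma-like cells were the clearest case: in 12 pairs with at least 1000 light chain UMIs the shallower copy held 1.63% to 3.99% of all UMIs and 1.42% to 4.14% of the light chain UMIs of its partner. A cell with 39531 Igkc UMIs in EYFP negative run 1 had a copy with 1480 in EYFP positive run 1, and a lambda cell with 10143 Iglc1 and 8426 Iglc2 UMIs in EYFP negative run 2 had one with 180 and 148 in EYFP positive run 2. With the copies kept, EYFP positive runs 1 and 2 would each hold 8 plasma-like cells, of which 6 and 7 are such copies.

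Most B-like cells held kappa RNA mixed with some lambda RNA, whereas plasma-like cells held almost pure kappa. Among the 828 B-like cells with at least 10 UMIs over the 4 genes, Igkc made up a median of 77.2% of light chain UMIs (quartiles 66.7% and 84.2%). The library medians were 78.2%, 78.7% and 76.8% in EYFP negative runs 1, 2 and 3 and 65.5%, 73.4% and 74.5% in EYFP positive runs 1, 2 and 3, so the EYFP positive medians, on 17, 29 and 34 cells, were all below the EYFP negative ones, which was not tested. Among the 37 plasma-like cells with 10 such UMIs the median was 98.5%. The B-like cells formed 1 broad hump and a small separate group, with 253 cells between 80% and 90%, 227 between 70% and 80% and 136 between 60% and 70%, only 8 and 7 cells in the ranges of 20% to 30% and 10% to 20%, and 25 cells under 2%. Of the plasma-like cells, 30 lay above 90% and 2 under 2%. No Igkc UMI was found in 22 of the 828 B-like cells, 17 of them in EYFP negative run 3.

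**Figure D1:**
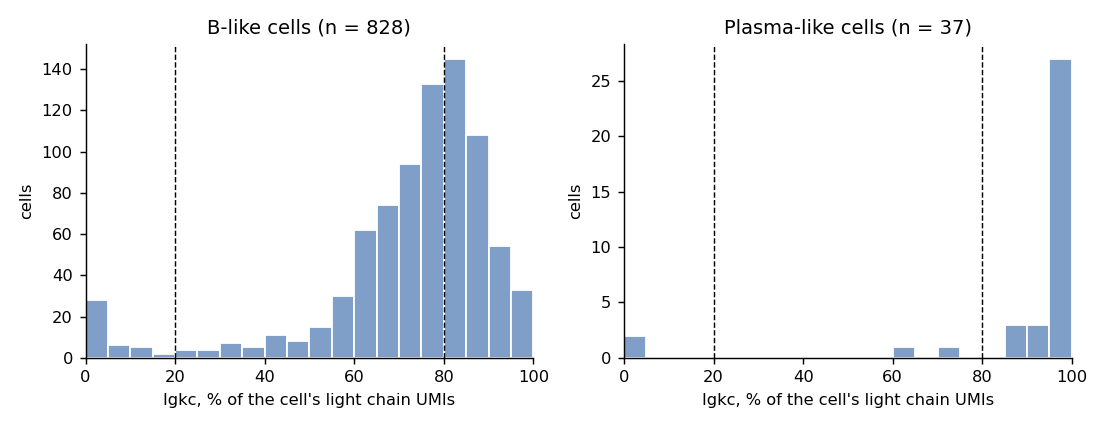
Histogram of the Igkc share of light chain UMIs (x axis, percent) in B-like (828) and plasma-like (37) cells with at least 10 light chain UMIs; the y axis counts cells and dashed lines stand at 20% and 80%. B-like cells peak between 60% and 90% with a small group near 0%, and plasma-like cells pile up above 90%.

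A cell was called kappa where Igkc held at least 80% of these UMIs, lambda where it held at most 20%, and mixed in between. This gave 373 kappa, 43 lambda and 449 mixed cells, and 148 cells under 10 UMIs had no call. Because the calls are cut from a continuous share, kappa and mixed cells are ranges of 1 distribution and not types. The 340 kappa B-like cells had a median of 65 Igkc UMIs (quartiles 43.75 and 87, highest 247) at a median depth of 4808 UMIs, with medians of 0, 4 and 4.5 for Iglc1, Iglc2 and Iglc3. The 447 mixed B-like cells had a median of 44 Igkc UMIs at a depth of 5344, with 1, 9 and 7 for the lambda genes. In the 41 lambda B-like cells, at a depth of 5383, the median was 0 for Igkc (highest 27), 35 for Iglc1 (highest 134), 8 for Iglc2 and 4 for Iglc3. The 143 B-like cells without a call were shallow, with a median depth of 935 UMIs and 3 Igkc UMIs.

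Lambda constant RNA was present in most kappa B-like cells, mainly as Iglc2 and Iglc3. In the 340 cells called kappa, Iglc2 was detected in 89.7%, Iglc3 in 87.1% and Iglc1 in 42.9%, at 7.95, 6.76 and 1.38 UMIs per 100 Igkc UMIs, although the call itself limits how much lambda RNA they can hold. Their summed levels were 13233 CPM (counts per 1000000 UMIs) for Igkc, 1052 for Iglc2, 895 for Iglc3 and 183 for Iglc1. The wider set of 748 B-like cells with Igkc at 50% or more of light chain UMIs, most of them mixed cells, had higher lambda values. There Iglc2 was detected in 94.8% of cells, Iglc3 in 93.0% and Iglc1 in 56.1%, at 13.8, 11.1 and 3.35 UMIs per 100 Igkc UMIs. The levels were 10554 CPM for Igkc, 1456 for Iglc2, 1170 for Iglc3 and 354 for Iglc1. By library, in the wider set, Iglc2 had 1511, 1339 and 1519 CPM in EYFP negative runs 1, 2 and 3 and 1300, 1461 and 1318 CPM in EYFP positive runs 1, 2 and 3. Iglc3 ranged from 914 to 1365 CPM and Iglc1 from 238 to 389 CPM over the same libraries. As a ratio, the lowest and highest library thus lay closest for Iglc2 and farthest apart for Iglc1. Cells that should not make this RNA held less of it: the 1781 endothelial-like cells held 8.88 CPM of Iglc2, 4.67 of Iglc3 and 4.83 of Iglc1, with a UMI in 3.03%, 1.57% and 1.74% of cells (median depths of 2115 to 5169.5 UMIs in the libraries with over 100 such cells). The 642 T or NK-like cells held 10.03, 5.28 and 3.17 CPM.

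Kappa plasma-like cells did not show the B-like ratio. In the 21 kappa plasma-like cells with at least 1000 Igkc UMIs, Igkc alone reached 403873 CPM, and Iglc2, Iglc3 and Iglc1 stood at 0.487, 0.144 and 0.386 UMIs per 100 Igkc UMIs. On the CPM scale the lambda genes of these cells were at 1967 for Iglc2, 580 for Iglc3 and 1558 for Iglc1. Against the B-like cells under the same kappa call, at 1052, 895 and 183 CPM, Iglc2 and Iglc1 were thus higher and Iglc3 lower. No test was made between these 2 sets of cells, since their light chain values chose them. Within the wider set of B-like cells the lambda genes varied weakly together: across the 748 cells, which share libraries and depth, the Pearson correlation of log2 scaled counts was 0.40 for Iglc2 and Iglc3, 0.27 for Iglc1 and Iglc2 and 0.11 for Iglc1 and Iglc3, and 0.02 to 0.06 for each of them with Igkc. These are descriptions in sparse counts, and the one for Iglc2 and Iglc3 can hold shared reads.

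Lambda cells mostly used Iglc1. Of the 41 lambda B-like cells, 27 had Iglc1 as their most abundant lambda gene, 8 had Iglc2 and 6 had Iglc3. In the Iglc1 cells that gene held a median of 81.4% of the lambda UMIs, and 17 of the 27 had at least 80%. The leading gene was less dominant in the others, with medians of 61.4% in the Iglc2 cells (2 of 8 at 80% or more) and 53.1% in the Iglc3 cells (1 of 6). The Iglc3 cells also had a median of 26 Iglc2 UMIs beside 75 Iglc3 UMIs, and the Iglc2 cells 5 Iglc3 UMIs beside 64.5 Iglc2 UMIs. Across the 41 cells Iglc1 ran against the others (Pearson correlation -0.47 with Iglc2 and -0.40 with Iglc3), which the choice of cells by the sum of the 3 genes in part imposes. No Igkc UMI was found in 15 of the 27 Iglc1 cells, 6 of the 8 Iglc2 cells and 1 of the 6 Iglc3 cells.

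**Figure D2:**
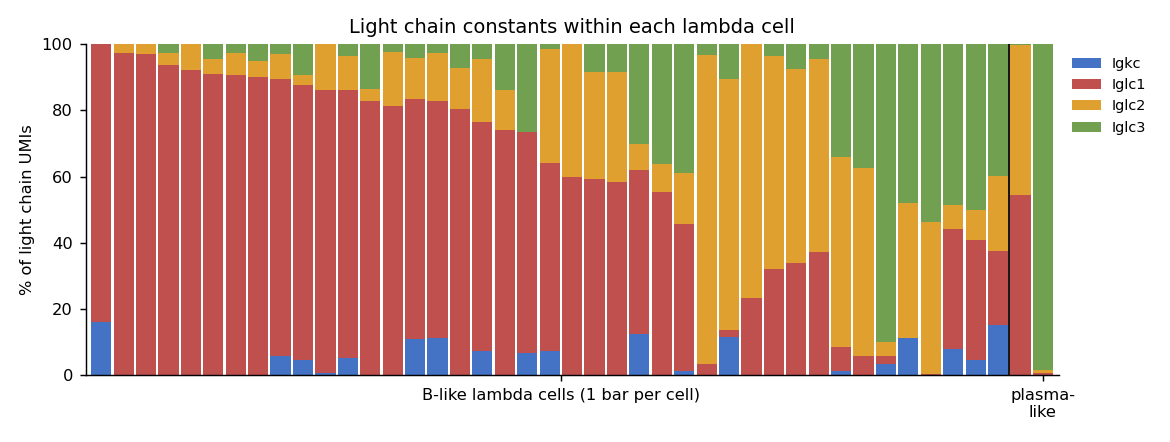
Stacked bars, 1 per lambda cell (41 B-like and 2 plasma-like), of the percent of light chain UMIs from Igkc, Iglc1, Iglc2 and Iglc3. Iglc1 fills most of the bar in most B-like cells, 8 B-like cells are led by Iglc2 and 6 by Iglc3, and 1 of the plasma-like cells splits between Iglc1 and Iglc2.

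Plasma-like cells differed among themselves over several orders of magnitude. Of 42, 33 were called kappa, 2 lambda and 2 mixed, and 5 had under 10 light chain UMIs and no UMI of Jchain, the joining chain of secreted IgM and IgA. The 33 kappa cells had 21 to 39531 Igkc UMIs with a median of 4961, and light chain RNA made up a median of 25.7% and at most 60.8% of all UMIs of a cell. Heavy chains were counted in a different set of 33 plasma-like cells. That set also holds lambda and mixed cells and leaves out some kappa cells with little light chain RNA. In it the most abundant heavy chain gene was Ighm (IgM) in 22 cells, Ighg1 in 4, and Igha, Ighg2b and Ighg3 in 2 each. In 1 cell of that set no heavy chain reached 10 UMIs. The lambda plasma-like cell of EYFP negative run 2 held 10143 Iglc1, 8426 Iglc2, 29 Iglc3 and 0 Igkc UMIs, together with 4608 Ighm and 1497 Jchain UMIs, 49 UMIs of the variable segment Iglv1 and 24 of Iglv2. The other, in EYFP positive run 3, held 6394 Iglc3, 60 Iglc2, 39 Iglc1 and 0 Igkc UMIs, with 1568 Jchain and 101 Iglv1 UMIs. It was the only plasma-like cell kept from run 3, in either fraction. That run also held 2 barcodes rich in light chain RNA that were removed as called doublets.

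Variable segments were seen far less than constant genes. In kappa B-like cells the Igkv genes together had 0.593 UMIs per 100 Igkc UMIs, with an Igkv UMI in 108 of 340 cells, and in kappa plasma-like cells 0.459, in 28 of 33 cells. Over B-like and plasma-like cells 73 of 160 Igkv genes had a UMI, 1722 in all. The 5 with most UMIs were Igkv10-96 (215), Igkv6-20 (204), Igkv16-104 (203), Igkv3-2 (161) and Igkv1-117 (144), and the most that any single plasma-like cell held was 123, 117, 195, 95 and 95 of these, taken for each gene on its own. Each total thus comes in most part from 1 cell. Iglv1, the segment most used with Iglc1 and Iglc3, was seen in 8 of 41 lambda and 14 of 340 kappa B-like cells, Iglv3 in 1 of 41 and 22 of 340, and Iglv2 in 0 of either. Among kappa plasma-like cells Iglv1 was seen in 20 of 33 with 1157 UMIs, and 12 of them had more Iglv1 than Iglc1 UMIs.

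The share of lambda among kappa and lambda cells was 10.3% over all libraries (43 of 416 cells, 95% Clopper-Pearson interval 7.58% to 13.7%, counting error only). It was 10.8% (7.83% to 14.3%) in B-like and 5.71% (0.700% to 19.2%) in plasma-like cells. EYFP negative runs 1, 2 and 3 had 7.84% (4 of 51 cells), 5.59% (8 of 143) and 13.2% (25 of 190). EYFP positive runs 1, 2 and 3 had 12.5% (1 of 8), 14.3% (2 of 14) and 30.0% (3 of 10). The EYFP positive libraries rest on very few cells, with intervals of 0.316% to 52.7%, 1.78% to 42.8% and 6.67% to 65.2%, and their range overlaps that of the EYFP negative ones.

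EYFP positive libraries had a lambda share of 18.9% ± 9.63 (SD, n = 3) against 8.87% ± 3.88 (n = 3), a difference of 10.1 percentage points that did not pass a two-sided exact permutation test over libraries (p = 0.2, smallest possible 0.1). The difference was 4.66, 8.69 and 16.8 points within runs 1, 2 and 3, and without EYFP positive run 3 it was 4.53 points. Pancreatitis libraries had 21.6% ± 11.9 (n = 2) against 10.1% ± 4.03 (n = 4) in homeostasis, a difference of 11.5 points (exact permutation p = 0.133, smallest possible 0.0667). Without EYFP positive run 3 this became 3.102 points, and without EYFP negative run 3 it became 19.9 points. Calling each cell by the larger of kappa and lambda used 865 cells and left no mixed ones. It gave a lambda share of 9.48% (82 cells, 7.61% to 11.6%), and the differences shrank to 3.102 points for EYFP (exact permutation p = 0.1) and 0.612 points for condition (p = 0.933). By the larger of both chains the EYFP groups did not overlap, with 8.25%, 8.08% and 10.1% in the negative and 10.5%, 13.8% and 11.4% in the positive libraries, and p = 0.1 is the smallest that the exact permutation test can give. A design of this size cannot reach 0.05 in either contrast, so these tests leave undecided whether the shares differ.

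**Figure D3:**
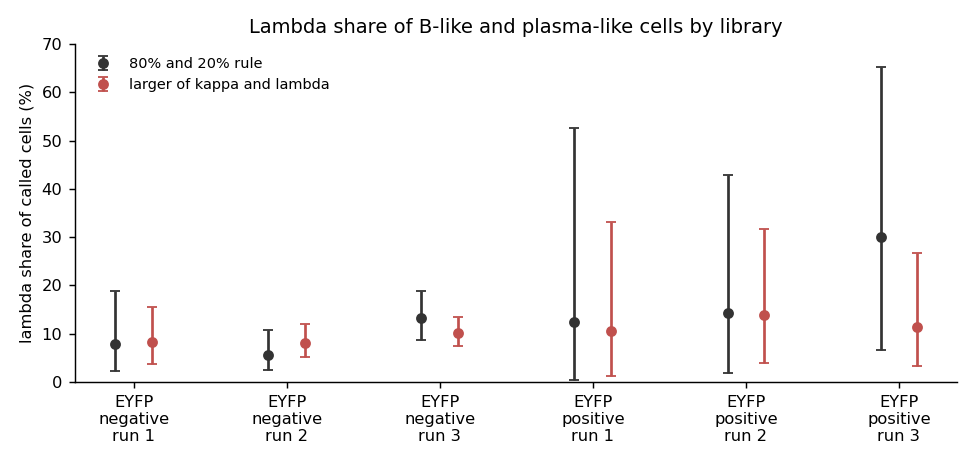
Lambda share (y axis, percent of kappa and lambda cells, with 95% Clopper-Pearson intervals) in each of the 6 libraries, black for the rule of 80% and 20% and red for the larger of kappa and lambda. EYFP positive libraries have wide intervals on 8 to 14 cells, and the red points lie between 8.08% and 13.8%, around the pooled 9.48%.

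Among the 8 B-like sub-clusters, which were built without immunoglobulin genes, the lambda share ran from 6.82% to 28.6%, and the intervals of all overlapped. The highest value rested on 4 of 14 cells (8.39% to 58.1%), and by the larger of kappa and lambda the same sub-cluster had 7 of 45 cells (15.6%, 6.49% to 29.5%).

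The level of the 4 genes in B-like cells overlapped between the EYFP groups and between the conditions. Igkc was at 9304, 8327 and 10405 CPM in EYFP negative runs 1, 2 and 3 and at 5064, 8508 and 5458 CPM in EYFP positive runs 1, 2 and 3. Runs 1 and 3 of the EYFP positive fraction were the lowest, and run 2 lay within the EYFP negative range. Iglc1 was at 464, 541 and 881 CPM in the negative and 276, 743 and 557 CPM in the positive libraries. Iglc2 was at 1849, 1297 and 1737 against 1046, 1376 and 1327 CPM, and Iglc3 at 1461, 865 and 1405 against 963, 891 and 930 CPM. As a ratio of the highest to the lowest library the CPM differed most for Iglc1, which EYFP positive run 1 held at 276 and EYFP negative run 3 at 881. Mean Igkc was 6343 ± 1885 against 9345 ± 1040 CPM (SD, n = 3 each, two-sided exact permutation p = 0.2), and the p-values for Iglc1, Iglc2 and Iglc3 were 0.7, 0.3 and 0.4. Between conditions they were 1, 0.333, 0.733 and 0.8 for Igkc, Iglc1, Iglc2 and Iglc3, and the lowest adjusted p over the 32 such exact permutation tests was 0.64.

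Summed counts of B-like and plasma-like cells gave no call for any of the 4 genes between EYFP groups. In edgeR's quasi-likelihood test 7 of 6827 genes (0.103%) had a Benjamini-Hochberg adjusted p under 0.05, and 0 of 4 light chain genes did, although Iglc1 and Iglc2 were among the 395 genes with an unadjusted p under 0.05. The log2 fold changes, EYFP positive over negative, were -0.65 ± 0.73 (SE) for Igkc, -1.99 ± 0.70 for Iglc1, -1.21 ± 0.50 for Iglc2 and 0.82 ± 0.76 for Iglc3, with edgeR adjusted p of 0.952, 0.735, 0.790 and 0.931. DESeq2 called 14 genes and again none of the 4. The sums hold 10, 27 and 0 plasma-like cells in the negative and 3, 1 and 1 in the positive libraries, and the part of these counts in the values was not tested. In B-like cells alone 0 of 6098 genes (0.00%) were called, 346 at an unadjusted p under 0.05, and the values were -0.53 ± 0.24, -0.19, -0.35 and -0.38 for Igkc, Iglc1, Iglc2 and Iglc3.

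The 3 genes called higher in EYFP positive cells were Epcam and Cldn7, an epithelial adhesion and a tight junction gene, and Hadh, and the 4 lower were Ighg3, Hbb-bs, Hba-a1 and Hba-a2. Epcam was at 24.8, 35.3 and 6.67 CPM in EYFP negative and 138, 142 and 28.2 CPM in EYFP positive runs 1, 2 and 3, and the haemoglobin gene Hbb-bs at 6777, 616 and 14150 against 16.8, 74.4 and 208 CPM. RNA of epithelial and red cells thus moved with the EYFP fraction in these sums; its part in the light chain values was not tested.

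The pancreatitis contrast of the same sums gave large but uncalled values for Igkc and Iglc3. Of 6827 genes 53 were called (0.776%, 8 higher and 45 lower), and again 0 of the 4, with log2 fold changes of -3.69 ± 0.95 for Igkc, -0.70 ± 0.74 for Iglc1, -0.34 ± 0.53 for Iglc2 and 3.08 ± 0.82 for Iglc3 (edgeR adjusted p = 0.146, 0.879, 0.948 and 0.169). EYFP positive run 3 held 1 plasma-like cell, with Iglc3, and EYFP negative run 3 held 0, whereas the homeostasis libraries held 41. With called doublets kept, a choice made after seeing the data, EYFP negative run 3 held 2 plasma-like cells with 18708 Igkc and 15238 Iglc3 UMIs, and Iglc3 was called higher (3.78, edgeR adjusted p = 3.25e-05) while Igkc was not (-3.38, adjusted p = 0.0670). The part of these few cells in the values was not tested. Without EYFP positive run 2 Igkc was called (-4.07, edgeR adjusted p = 0.000146), and without EYFP negative run 3 Iglc3 was (4.68, adjusted p = 0.00954). In B-like cells alone 4 of 6098 genes were called (0.0656%), none of them a light chain gene, and the values for Igkc, Iglc1, Iglc2 and Iglc3 were 0.12 ± 0.25, 0.64 ± 0.34, 0.30 ± 0.26 and 0.31 ± 0.26.

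Lists of partner genes were read in the same fits. Of 33 antigen receptor and early B cell genes (heavy chains, Cd79a and Cd79b, kinases and transcription factors) 26 were tested between EYFP groups, and 0 rose and 1 fell, Ighg3, with a list median of -0.14 against 0.00 over all genes. Its UMIs were 10612, 6421 and 26 in EYFP negative and 2, 1 and 1 in EYFP positive runs 1, 2 and 3. Between conditions 0 rose and 2 fell, Ighg1 and Ighg3 (list median -0.02 against -0.01 over all genes), and Ighg1 had 12467, 2135 and 8 UMIs in the negative against 1, 43 and 0 in the positive libraries. Both are IgG heavy chain genes of plasma cells and lay almost wholly in the 2 EYFP negative homeostasis libraries. There a single plasma-like cell held 10567 Ighg3 UMIs in run 1 and another held 6373 in run 2. For Ighg1, 1 cell held 12346 UMIs in run 1 and 1 cell held 2080 in run 2. Each of these library totals thus came almost wholly from 1 cell. Of 22 genes for chaperones and secretion of antibody, such as Mzb1, Hspa5 and Xbp1, all 22 were tested and 0 were called in either contrast, with medians of -0.39 between EYFP groups and -1.15 between conditions. In B-like cells alone the latter was 0.06, over 18 genes.

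Lambda and kappa B-like cells could be compared in only 2 libraries. EYFP negative runs 2 and 3 had at least 5 lambda cells each, and their 32 lambda and 278 kappa B-like cells were compared with library as a block in edgeR on 4 sums, which leaves 1 residual degree of freedom, so a gene without a call is not shown to be alike. Of 3527 genes 5 were called (0.142%); Iglc1 (5.35) and Igkc (-4.75) were among them, but they chose the cells and say nothing more. Iglc2 (log2 fold change 1.34, edgeR adjusted p = 0.515) and Iglc3 (0.88, adjusted p = 0.999) were not called. The other 3 were haemoglobin genes, lower in lambda cells: Hbb-bt (-2.45, adjusted p = 0.0307), Hba-a2 (-1.23, 0.0371) and Hba-a1 (-1.19, 0.0371), and DESeq2 called none of them. B cells do not make haemoglobin, and the part of red cell RNA in these calls was not tested.

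The genes of lowest p besides these did not pass the test. They were higher in lambda cells for Zbtb20, a transcription factor (1.28, edgeR adjusted p = 0.561), and for Plac8, Cyth1, S100a4 and Pim1 (1.07 to 1.90, adjusted p = 0.999), and lower for Gm30211 (-3.22, 0.515) and Vpreb3, a partner of the immature receptor (-1.25, 0.999). The receptor genes had values near 0: 0.16 for Ighm, -0.41 for Ighd, -0.22 for Cd79a and 0.12 for Cd79b. Of the antigen receptor list 0 of 21 tested genes were called and of the chaperone list 0 of 14.

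Outside B-like and plasma-like cells, Igkc was the main light chain RNA, and its level split the libraries. Summed over all other classes it was at 511, 349 and 10.5 CPM in EYFP negative runs 1, 2 and 3 and at 29.4, 36.2 and 13.5 CPM in EYFP positive runs 1, 2 and 3 (866, 1698, 76, 158, 30 and 25 UMIs). EYFP negative runs 1 and 2 were high, and the other 4 libraries, EYFP negative run 3 among them, were low. An Igkc UMI was found in 83.9%, 63.4% and 7.01% of these cells in the negative libraries, against 17.7%, 13.1% and 9.23% in the positive ones, and after thinning each cell to 1000 UMIs in 46.0%, 32.7% and 1.08% against 4.09%, 6.03% and 1.71%. Thinning left 285 of 316, 1102 of 1334 and 929 of 998 cells of the EYFP negative and 758 of 787, 116 of 137 and 175 of 195 of the EYFP positive libraries. The 2 high libraries are also the ones with 10 and 27 plasma-like cells, against 0 to 3 in the other 4.

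**Figure D4:**
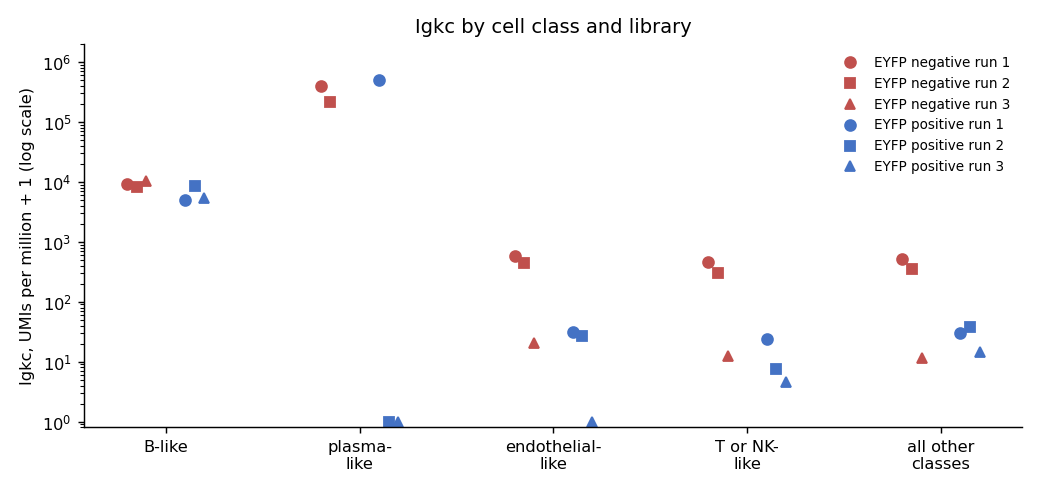
Igkc level (y axis, CPM plus 1, log scale) in each cell class and library, with a count of 0 shown at 1. Plasma-like cells lie highest and B-like cells between 5064 and 10405 CPM, while in the other classes EYFP negative runs 1 and 2 lie above the other libraries.

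In endothelial-like cells, the largest other class, Igkc was at 583, 448 and 19.3 CPM in EYFP negative and 30.2, 25.6 and 0 CPM in EYFP positive runs 1, 2 and 3. The last rests on 0 UMIs, which allows up to 20.01 CPM (3 counts). T or NK-like cells had 453, 299 and 11.4 against 22.9, 6.45 and 3.55 CPM. The EYFP positive value was lower in 3 of 3 runs in both classes, but EYFP negative run 3 overlapped the EYFP positive libraries. In edgeR, with condition in the model, Igkc fell in endothelial-like cells (log2 fold change -4.17 ± 0.32, adjusted p = 8.16e-07), where 5 of 7119 genes were called (0.0702%), and in T or NK-like cells (-4.35 ± 0.44, adjusted p = 0.000836), where 2 of 5315 were (0.0376%). An exact permutation test of the CPM, which has no condition term, gave p = 0.3 and 0.2. The counts come from the same libraries as the acinar-like value known at the choice of the genes and are not independent of it. Iglc1, Iglc2 and Iglc3 did not pass the filter on low counts in either class, so 1 of the 4 genes was tested. In T or NK-like cells Igkc itself did not pass this filter without EYFP negative run 1 or without EYFP negative run 2. It was thus tested there through the libraries in which it was high, and its call in that class is a description.

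In endothelial-like cells 2 further immunoglobulin-related genes, Ighm and Jchain, fell with Igkc. They were the only calls among 5 tested genes of the antigen receptor list (list median -0.32, against 0.01 over all genes), and 0 of 17 tested chaperone and secretion genes were called (median -0.08). Ighm, the IgM heavy chain, had 62, 190 and 2 UMIs in runs 1, 2 and 3 of the EYFP negative against 25, 1 and 0 of the EYFP positive fraction (log2 fold change -3.65), and Jchain had 22, 82 and 0 against 5, 0 and 0 (-4.61). The remaining 2 calls there were mt-Co3 (-1.42), a mitochondrial gene, and the fibroblast matrix gene Dcn, with 4, 56 and 10 UMIs against 1, 0 and 0. In T or NK-like cells 0 of 6 tested antigen receptor genes (list median -0.75) and 0 of 14 chaperone genes (0.09) were called, against a median of 0.01 over all genes. There Ighm was not called (-0.74, edgeR adjusted p = 0.743), and the other call of the fit was Stfa3, higher in EYFP positive cells with 35, 19 and 0 UMIs against 0, 1 and 0.

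Smaller classes gave a similar order and are described without a test. Igkc in macrophage or monocyte-like cells was at 708, 243 and 30.1 CPM in EYFP negative and 33.1, 0 and 0 CPM in EYFP positive runs 1, 2 and 3. Ductal-like cells had 394, 210 and 0 against 28.3, 13.5 and 8.05 CPM, and fibroblast-like cells 413, 278 and 4.36 against 113, 0 and 42.0 CPM. The EYFP positive fibroblast-like values rest on 6, 5 and 6 cells with 4, 0 and 2 UMIs, and a count of 0 there allows up to 136 CPM (3 counts). For macrophage or monocyte-like cells they rest on 9, 12 and 8 cells with 2, 0 and 0 UMIs, and the counts of 0 allow up to 35.4 and 23.5 CPM. The ductal-like value of 0 in EYFP negative run 3 rests on 4 cells and allows up to 32.7 CPM. Acinar-like cells, the class whose value led to the choice, had 560, 563 and 11.8 against 21.6, 280 and 23.4 CPM, where the 280 rests on 21 UMIs. In each of these classes EYFP negative runs 1 and 2 were highest or, for acinar-like cells, followed by EYFP positive run 2.

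The kappa share of this RNA differed between runs. In other classes Igkc made up 94.96% (95% interval 93.3% to 96.3%), 90.6% (89.1% to 91.8%) and 57.6% (48.7% to 66.1%) of light chain UMIs in EYFP negative runs 1, 2 and 3, and 92.4% (87.4% to 95.9%), 81.1% (64.8% to 92.0%) and 56.8% (41.0% to 71.7%) in EYFP positive runs 1, 2 and 3. B-like cells of the same libraries had 71.1%, 75.5% and 72.1% and 68.9%, 73.9% and 66.0%. In plasma-like cells the values were 99.1% for EYFP negative run 1, 86.5% for EYFP negative run 2 and 99.5% for EYFP positive run 1. Most of the 20469 lambda UMIs behind the 86.5% came from 1 lambda cell, with 10143 Iglc1 and 8426 Iglc2 UMIs. The share in other classes thus lay above that of B-like cells, beyond its interval, in both libraries of run 1 and in EYFP negative run 2. In EYFP positive run 2 and EYFP positive run 3 the interval held the value of the B-like cells. The value of EYFP negative run 3 lay below that of its B-like cells, but 17 of its 56 lambda UMIs were Iglc2 in 3 T or NK-like cells, so the interval, which treats UMIs as independent, is too narrow to place it. In run 3 the EYFP negative library kept 0 plasma-like cells, and the plasma-like cell of the EYFP positive library had 6394 Iglc3 and 0 Igkc UMIs. With called doublets kept, EYFP negative run 3 held 2 plasma-like cells with 18708 Igkc and 15238 Iglc3 UMIs. Their part in the share in other classes was not tested.

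**Figure D5:**
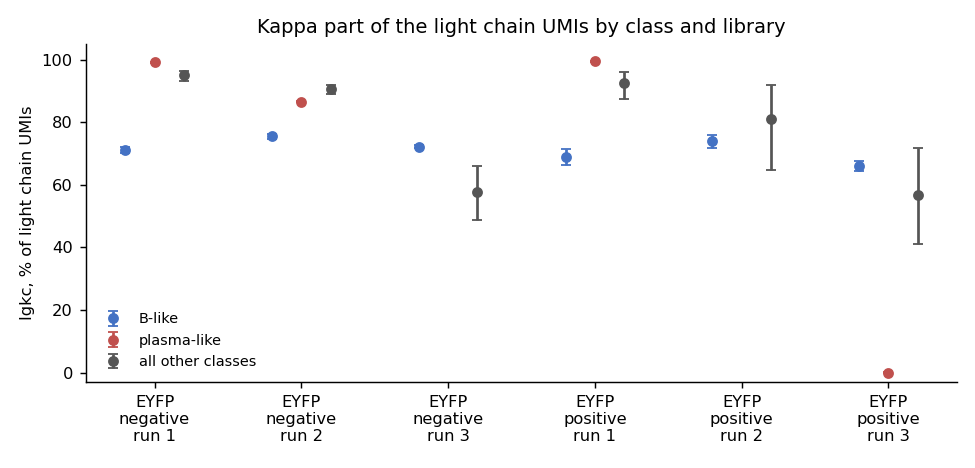
Igkc as a percent of light chain UMIs (y axis, with 95% Clopper-Pearson intervals) in B-like, plasma-like and all other cells of each library. In other cells the value is 81.1% to 94.96% in runs 1 and 2 and 56.8% to 57.6% in run 3, while B-like cells stay between 66.0% and 75.5%.

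Markers of B and plasma cells were counted in the same way. Cd79a, a B cell receptor partner, stood at 33.1 to 44.2 UMIs per 100 Igkc UMIs in B-like cells and at 0.172 to 0.236 in plasma-like cells. This ratio is low in plasma-like cells that hold much Igkc and does not show that they lack Cd79a. Kappa plasma-like cells had a mean of 17.7 Cd79a UMIs and kappa B-like cells 17.6, at median depths of 23059 and 4808 UMIs. In all other classes Cd79a stood at 1.39, 4.005 and 14.5 per 100 Igkc UMIs in EYFP negative and 2.53, 16.7 and 12 in EYFP positive runs 1, 2 and 3. Jchain stood there at 6.24, 7.95 and 14.5 and at 4.43, 3.33 and 28 per 100. The B cell gene Ms4a1 had 4, 36 and 1 UMIs in these cells in EYFP negative and 1, 5 and 0 in EYFP positive libraries, and Iglc2 was at 7.08, 18.7 and 3.31 against 1.12, 6.04 and 1.62 CPM. T or NK-like cells of EYFP negative run 3 held 22 Igkc against 32 lambda UMIs. Whether these UMIs came from free RNA, from doublets or from the cells themselves was not tested.

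Across 41 sums of class and library with at least 10 cells, the genes whose level followed Igkc most closely were Mzb1, an endoplasmic reticulum helper of antibody assembly (Pearson correlation 0.91 of log2(CPM + 10)), Ighm (0.87), Pou2af1, a coactivator of immunoglobulin genes (0.85), Ly6d (0.85), Gm30211 (0.84), Cd79a (0.84), Cd79b (0.83), AC125149.3 (0.82), Iglv3 (0.82) and Vpreb3 (0.82). The sum of Iglc1, Iglc2 and Iglc3 was followed most closely by Mzb1 (0.97), Pou2af1 (0.95), Gm30211 (0.94), Ly6d (0.93), Cd79a (0.93), A530040E14Rik (0.93), Vpreb3 (0.92), Cd79b (0.91), Ms4a1 (0.91) and Fcrla (0.91). These were the 10 closest of 11544 genes in each case and 41 points, and the sums of 1 library share its depth and its free RNA.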

How the data were processed

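The deposited values were raw UMI counts per gene and barcode, which are whole numbers per the file headers. The authors' tools were Cell Ranger 2.1.0 and GRCh38 per the submitters' processing notes, while the matrix headers name software 3.1.0 and the genes carry mouse identifiers; the sources used here do not give the mouse build. The EYFP sort was not checked in the counts.

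Cells needed 200 genes and no more than 20% mitochondrial UMIs. Doublets called per library by Scrublet in scanpy 1.11.5 (0 to 26 per library) and the shallower copy of a barcode shared within a run were removed. Leiden clusters (leidenalg 0.10.2) built without immunoglobulin genes were named from marker lists. The members, gene lists and marker lists were chosen with earlier results of these data known.

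UMI counts were summed per library and class and tested with edgeR 4.0.16's quasi-likelihood test (TMM, filterByExpr, Benjamini-Hochberg adjusted p under 0.05 over all genes tested) on all 6 libraries with EYFP and condition as terms, after a check on simulated counts. Lambda and kappa B-like cells were compared in libraries with at least 5 lambda cells. Shares and CPM were compared over libraries with two-sided exact permutation tests. Intervals are exact at 95% and cover counting error only, and a count of 0 was given a limit of 3 counts. Named genes were the 4 members, the antigen receptor and the chaperone list, variable segments (Iglv1 to Iglv3 and the 5 Igkv genes with most UMIs), the 10 genes most like the members among those with at least 100 UMIs, and genes called or of lowest p. Genes named beside these were chosen after their values were seen.

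The labels give each run 1 library per fraction, and run numbers were taken to pair the libraries. Deviations from the mean of each EYFP fraction correlated within runs 1, 2 and 3 at 0.281, 0.222 and 0.168 in endothelial-like cells and at 0.166, 0.252 and 0.358 in T or NK-like cells, but at 0.160, -0.151 and 0.259 in B-like and plasma-like cells. Pairs of different runs ranged from -0.376 to 0.274 in B-like and plasma-like cells. Condition was not removed from these deviations, so the values of run 3 also hold it. Alternatives were DESeq2 1.42.0, its size factors in edgeR, no low-count filter, library sizes without other immunoglobulin genes, stricter cells (500 genes, 10% mitochondrial UMIs), doublets kept, clustering with immunoglobulin genes, other rules of the light chain call (minimum 5 or 20 UMIs, 50%, 90% and 10%, thinned cells, free RNA subtracted), leaving out each library, and a block for run. Keeping the shallower copies, B-like cells alone and doublets kept in the summed counts were added after seeing the data, as was the call at 50% with each library left out.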

Additional observations from a re-analysis of the deposited data

Results flagged for a closer look

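About 1 in 20 groups would show a sample apart from the rest by chance alone, and 10 values were looked at. In B-like cells of EYFP negative run 1 Iglc3 was at 1461 CPM, far from the other 3 homeostasis libraries, which lay between 865 and 963 CPM. The 4 lambda B-like cells of EYFP negative run 1 held 6, 55, 60 and 107 Iglc3 UMIs. In the wider set of 748 B-like cells, chosen by their Igkc share, this library did not stand apart. Iglc3 was there at 1121 and 914 CPM in EYFP negative runs 1 and 2. It was at 1365 CPM (on 15 cells) and 949 CPM in EYFP positive runs 1 and 2. The part of the lambda cells in the value of 1461 CPM was not tested. Igkc in all classes other than B-like and plasma-like differed in direction between runs. In the pancreatitis run it was higher by 2.996 CPM in the EYFP positive than in the EYFP negative library, on 25 and 76 UMIs. In both homeostasis runs the EYFP positive value was the lower one, and this difference between conditions was not tested. By class, the EYFP positive value of the pancreatitis run was lower in endothelial-like, T or NK-like and macrophage or monocyte-like cells. It was higher in acinar-like, ductal-like and fibroblast-like cells. A barcode of EYFP negative run 3, called a doublet and left out, held 18706 Igkc UMIs among 32330, with 5253 Igha and 1835 Jchain UMIs. Another barcode of the same library, also called a doublet, held 15221 Iglc3, 1627 Iglc1 and 2 Igkc UMIs among 43337, with 5613 Ighm, 4291 Jchain and 128 Iglv1 UMIs.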

How the results depend on the processing

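Both differences in lambda share kept their direction under all alternatives that were run, none of which could pass the threshold, since the smallest possible exact permutation p with all libraries is 0.1 for EYFP, 0.0667 for condition and 0.25 for the 3 pairs; EYFP reached 0.1 in B-like cells alone, in thinned cells and by the larger of kappa and lambda. They stood at 4.53 to 13.3 points for EYFP and 3.102 to 19.9 points for condition with 1 library left out; the rule of 90% and 10% gave 33.4 and 50.2 points on 153 cells. The 7 genes called between EYFP groups became 14 with DESeq2, 229 without the low-count filter, 1 with stricter cells, 0 with the shallower copies kept, 2 with doublets kept, 0 in B-like cells alone and 1 to 36 with 1 library left out (36 without EYFP positive run 2). The 53 called between conditions became 335 without the filter, 94 with the copies kept, 121 with doublets kept, 4 in B-like cells alone and 2 to 191 with 1 library left out (2, 9 and 17 without EYFP negative runs 3, 2 and 1, and 191 without EYFP positive run 2). The 5 between lambda and kappa B-like cells became 2 with DESeq2, 11 without the filter, 2 with no replicate block and 15 with the call at 50%. The cause was not tested. Iglc3 turned to -0.45, -0.46 and -0.38 between EYFP groups without EYFP negative run 3, without EYFP positive run 3 and in B-like cells alone (-0.46 to 1.61 with 1 library left out). Between conditions Igkc turned to 0.12 in B-like cells alone, Iglc1 to 0.64 there and to 0.06 and 0.46 without EYFP negative runs 2 and 3, and Iglc2 to 0.30, 0.18 and 0.48; with 1 library left out these 2 ran from -2.16 to 0.46 and from -1.28 to 0.48. Without the filter Iglc1 (-2.09) and Iglc2 (-1.31) were called between EYFP groups, and Igkc (-3.60) and Iglc3 (3.18) between conditions, where Igkc was also called with the copies kept (-3.91, edgeR adjusted p = 0.0454) and Iglc3 with doublets kept (3.78). Run as a replicate block called 9 genes between EYFP groups and gave -1.37 for Igkc there, -4.26 in endothelial-like and -4.44 in T or NK-like cells and an unchanged mean difference in lambda share of 10.1 points (exact permutation p = 0.25, its smallest), and changed no call of the 4 genes. Igkc in endothelial-like cells ran from -4.36 to -4.05 with 1 library left out and in T or NK-like cells from -4.74 to -4.01 over 4 such fits; without EYFP negative run 1 or 2 it did not pass the filter in T or NK-like cells and has no value. Leaving out a library of the lambda and kappa comparison left no test at 80% and 20%; with the call at 50% it gave 8 to 13 genes. The EYFP positive libraries gave 8 to 14 called cells, which limits the precision of their lambda share.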
